A study of Mus musculus with 9 samples.

Results

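The epidermal kallikreins are secreted serine proteases, and Spink5 encodes LEKTI, the inhibitor that holds several of them in check in the outer skin. The genes described here are Klk5, Klk6, Klk7, Klk8, Klk9, Klk10, Klk11, Klk13, Klk14 and Spink5, taken as the rows of the deposited read count table whose gene name equals one of these symbols. All 10 were found, once each, among 56859 rows that name a gene. RNA sequencing was done on shaved back skin of wild-type BALB/c mice, 6 to 8 weeks old and free of specific pathogens. A first group of 3 libraries came from skin given vaseline for 7 days, the control. A second group of 3 came from skin given imiquimod (IMQ) for 7 days, a Toll-like receptor 7 agonist whose cream causes a psoriasis-like inflammation in mice. The last group of 3 received IMQ for 7 days together with a gel of bergapten, a plant furanocoumarin, for 2 days. The labels list no IMQ skin with an empty gel, so bergapten and its gel cannot be told apart, and they do not say whether the libraries of a group came from separate mice. P-values therefore measure the spread between these libraries, which may be technical.

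In the granular layer, keratinocytes secrete kallikreins as inactive precursors together with LEKTI. In the horny layer above, the active proteases cut the desmosomal proteins that tie dead cells to each other, so that the cells are shed. LEKTI carries a row of Kazal-type inhibitor domains, and it binds kallikreins near neutral pH and lets them go as the surface turns acid. In humans, loss of SPINK5 causes Netherton syndrome, with unrestrained kallikrein activity, a leaking barrier and inflamed skin.

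The vaseline libraries held 16080479 to 18757911 counted reads, the IMQ libraries 18890579 to 19456060 and those with bergapten 15855439 to 19862905. Markers of epidermis were abundant in every group, with mean FPKM of at least 693 for Krt5, 853 for Krt14 and 922 for Krt10, so the tissue matched its label. IMQ replicate 2 stood apart from the other libraries of its group. Within-group variance of log2 CPM, averaged over genes, was 0.238 in IMQ against 0.100 in vaseline and 0.102 with bergapten, and over the 10 members it was 0.410 against 0.0913 and 0.103. Bergapten replicate 2 had 1.794% of its counts on Rn18s, a ribosomal RNA gene, against 0.1787% to 0.2698% in the other 8 libraries. Calls and signs of members that change without such a library are given both ways.

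The 9 kallikrein genes lie on the plus strand of chromosome 7 within 160.8 kb, from 43339842 to 43500605 (GRCm39, from the deposited table), in the order Klk14, Klk13, Klk11, Klk10, Klk9, Klk8, Klk7, Klk6 and Klk5. Spink5 lies on another chromosome. Another 4 annotated genes lie in the kallikrein span. The minus-strand gene 2310002F09Rik overlaps 6 of the kallikreins and reached 32 counts at most in any library, whereas Klk8, which it overlaps, reached 2802. The sources used here do not say whether reads were counted by strand, so reads of the overlapping genes may not be told apart. Of all runs of 75 bases in the members' GENCODE M21 transcripts, none occurred in another gene for 8 members. For Klk8 the share was 20.343%, with 2310002F09Rik, and for Klk14 it was 18.857%, with 2310002F09Rik and a larger set of genes, so part of the reads of Klk8 and Klk14 may have been lost or split.

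Promoters are shown for 3 genes of the locus that differed in their response to IMQ: Klk13 and Klk9, with increases of at least 25-fold, and Klk10, which did not pass the test. Each is the 250 bases before the gene's start as RefSeq gives it on GRCm38.p6, plus strand, at chr7:43712317-43712566 for Klk13, chr7:43791641-43791890 for Klk9 and chr7:43780804-43781053 for Klk10. Capitals mark the only match among them to 5 motifs searched on both strands, a STAT-type palindrome.
Klk13: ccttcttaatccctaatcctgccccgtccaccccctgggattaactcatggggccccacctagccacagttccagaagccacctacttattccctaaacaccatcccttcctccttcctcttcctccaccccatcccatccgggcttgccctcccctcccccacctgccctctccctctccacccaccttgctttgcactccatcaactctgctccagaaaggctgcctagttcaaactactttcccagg
Klk9: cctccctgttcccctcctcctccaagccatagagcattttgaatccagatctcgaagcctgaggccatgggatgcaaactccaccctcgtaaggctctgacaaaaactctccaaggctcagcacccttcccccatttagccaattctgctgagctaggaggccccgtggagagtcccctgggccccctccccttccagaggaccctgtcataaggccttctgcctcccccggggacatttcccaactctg
Klk10: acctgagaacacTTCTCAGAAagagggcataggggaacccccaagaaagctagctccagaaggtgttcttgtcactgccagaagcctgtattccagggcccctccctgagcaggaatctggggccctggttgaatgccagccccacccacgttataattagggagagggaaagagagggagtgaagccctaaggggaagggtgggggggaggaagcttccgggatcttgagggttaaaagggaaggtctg
The searched letters were TGANTCA (AP-1), TTCNNNGAA (STAT), GGANNTTCC (NF-kappaB), GCGTG (the core bound by the aryl hydrocarbon receptor) and TTGCNNAA (C/EBP); a STAT and an NF-kappaB match can share the bases TTC. RefSeq gave 11 promoter entries for the 9 kallikreins. Of these, 0 held the AP-1 letters, which occur in 6.749% of all 32851 promoters of the same length, and 0 held the NF-kappaB letters, found in 3.586%. The STAT letters were in the entry of Klk10 alone, against 7.02% of all promoters, the GCGTG core in 1 entry, of Klk6, against 28.157%, and the C/EBP letters in both entries of Klk11, against 9.564%. These matches describe the letters in this window only.

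In vaseline-treated skin, the members spanned a wide range of levels. Levels are compared between genes in FPKM, which the authors scaled by gene length and depth. Klk10 was highest at 103 ± 10.1 FPKM (SD, n = 3), followed by Spink5 at 81.2 ± 6.16, Klk7 at 59.9 ± 3.12, Klk5 at 28.1 ± 0.234 and Klk6 at 22.2 ± 1.48. Klk11 reached 15.1 ± 2.98, Klk8 7.61 ± 1.26 and Klk9 6.95 ± 0.585, and Klk13 at 1.28 ± 0.796 and Klk14 at 0.198 ± 0.0412 were lowest. The ranges of Klk8 and Klk9 overlapped, and all other neighbours in this order were separated in all 3 libraries. The FPKM of Klk5, Klk6, Klk8, Klk11 and Klk13 rest on a shorter gene length than the one printed in the same table, by the most for Klk11 (1312 against 5196 bases) and Klk6 (1394 against 4129), which sets their place in the order. The other 5 members have equal lengths.

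In IMQ-treated skin, 8 of the 9 kallikreins rose against vaseline, by 2.78-fold for Klk11 to 77.1-fold for Klk13, while neither Klk10 nor Spink5 passed the test. The order of levels turned over: by deposited FPKM, Klk7, Klk6 and Klk9 were now the highest kallikreins (on the printed lengths Klk6, at 97.1, lay below Klk10, at 151), and Klk13 was at 105 FPKM against 1.28. The question was which genes differ between the inflamed and the control skin. Counts were tested with edgeR's quasi-likelihood F test over 18005 genes, with Benjamini-Hochberg adjustment and a threshold of 0.05. All 10 members were among the genes tested, but Klk14 passed the filter on low counts only through the IMQ-treated groups and so had to differ. Of all genes tested, 43.2% passed, 23% as higher and 20.2% as lower, and 26.9% had all 3 IMQ libraries above all 3 vaseline libraries. The 8 kallikreins that rose also had non-overlapping groups. The median log2 fold change of the members was 2.82, against 0.03 over all genes. In bulk skin, more granular cells and more RNA per cell cannot be told apart: the summed CPM of 18 granular layer markers was 8786 to 9515 in vaseline and 13090 to 26680 in IMQ, and that of 10 fibroblast markers was 108600 to 117200 against 9583 to 22250. Most of the rise in the granular sum came from Krt1 (mean 1214 CPM in vaseline, 7211 in IMQ) and Krt10 (2001 and 4269). Of the 18, 12 rose and 2 fell, Krt77 from a mean of 1543 to 8.97 CPM and Krt2 from 24.1 to 0.338. The sum is thus not a measure of granular cells alone. Krt2 passed the filter on low counts only through vaseline and so had to differ. None of the markers of either list was at 0 in a group, and their part in the kallikrein changes was not tested.

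**Figure D1:**
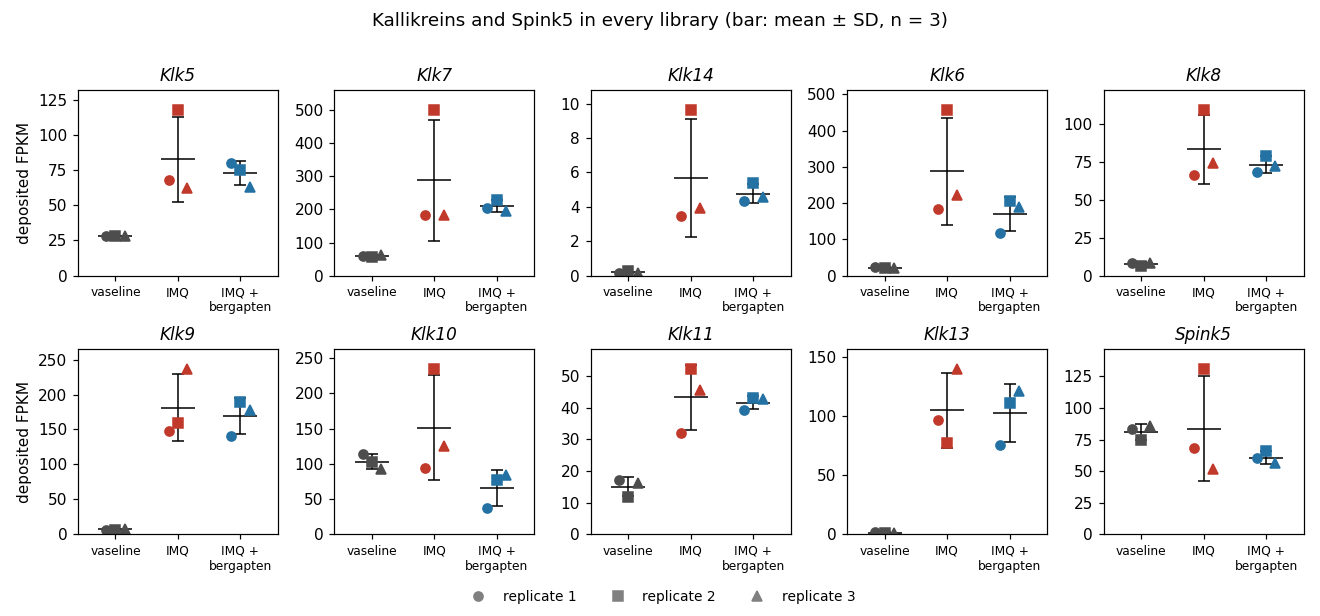
Level of each member in every library, as deposited FPKM on a linear axis that starts at 0 and differs between panels, with grey vaseline, red IMQ and blue IMQ with bergapten; horizontal bars are means and whiskers SD over 3 libraries, and marker shapes give the replicate number. Vaseline points lie below both other groups for 8 kallikreins, but not for Klk10 or Spink5, and IMQ replicate 2 is the highest point of its group in 8 of the 10 panels.

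Klk5, Klk7 and Klk14 form the desquamation core. Klk5 encodes a trypsin-like protease that activates the precursor of KLK7 and cuts the receptor PAR2. Within 1 gene, levels are given in CPM, read counts per unit of library size after TMM scaling. Klk5 stood at 36.1, 36.4 and 35.9 CPM in vaseline, 82.5, 152.5 and 75 in IMQ, and 93.8, 91.5 and 75.8 with bergapten. The vaseline libraries were nearly identical and all 6 others lay above them, with IMQ replicate 2 the highest. The log2 fold change of IMQ against vaseline was 1.52 (SE 0.25, adjusted p = 0.00124).

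Klk7 encodes a chymotrypsin-like protease that cuts corneodesmosin and desmocollin 1. Its levels were 118, 113 and 123 CPM in vaseline, 338, 993 and 337 in IMQ, and 366, 429.5 and 356 with bergapten. IMQ replicates 1 and 3 differed by less than the vaseline libraries did, and replicate 2 was 2.94 times their mean. Klk7 rose by a log2 fold change of 2.24 (SE 0.41, adjusted p = 0.00307), which became 1.52 (adjusted p = 6.87e-07) without IMQ replicate 2.

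Klk14, in human horny layer a main source of trypsin-like activity, had only 4, 5 and 4 counts in the vaseline libraries. It had 83, 238 and 96 counts in IMQ and 88, 136 and 110 with bergapten. It was thus the scarcest member in every group, and all 6 IMQ-treated libraries exceeded the vaseline libraries. The log2 fold change was 4.79 (SE 0.52, adjusted p = 6.97e-05) and 4.12 without IMQ replicate 2. Because Klk14 passed the filter on low counts only through the IMQ-treated groups, this p adds no support.

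Klk6 and Klk8 encode trypsin-like proteases also known from the nervous system, KLK8 under the name neuropsin. Klk6 measured 33.9, 32.6 and 29.9 CPM in vaseline, 252, 667 and 299 in IMQ, and 156, 283 and 255 with bergapten. Klk8 measured 11.5, 8.55 and 11.2 CPM in vaseline, 85.9, 151 and 94.7 in IMQ, and 84.9, 103 and 92.1 with bergapten. Both were again highest in IMQ replicate 2, without overlap between IMQ and vaseline. Klk6 rose by 3.66 (SE 0.41, adjusted p = 0.000235) and Klk8 by 3.40 (SE 0.23, adjusted p = 6.82e-06) on the log2 scale.

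Klk13 and Klk9 had 2 of the 3 largest increases, together with Klk14. Klk13, a trypsin-like protease, had 74, 29 and 21 counts in vaseline, 3308, 2726 and 4822 in IMQ, and 2156, 3969 and 4168 with bergapten. Klk9, a chymotrypsin-like protease, had 182, 158 and 196 counts in vaseline, 4136, 4556 and 6669 in IMQ, and 3284, 5566 and 4968 with bergapten. Unlike the 8 other members, both were highest in IMQ replicate 3, and replicate 2 was the lowest IMQ library for Klk13. The log2 fold change was 6.27 (SE 0.44, adjusted p = 2.04e-05) for Klk13 and 4.64 (SE 0.21, adjusted p = 7.05e-07) for Klk9. Without vaseline replicate 1, which had the most Klk13 counts of its group, the value for Klk13 was 6.87. Klk13 contains the short same-strand gene Gm44814, which had at most 83 counts in a library.

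Klk11, a trypsin-like protease, rose least of the 8. It stood at 23.2, 16.1 and 22.2 CPM in vaseline, 41.4, 72.0 and 57.9 in IMQ, and 48.8, 55.6 and 54.2 with bergapten. The groups did not overlap, and the log2 fold change was 1.48 (SE 0.20, adjusted p = 0.000334).

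Klk10, first described in human breast cells as a gene lost in tumour lines, sits between Klk11 and Klk9, at 1771 and 6480 bp from them, but its values did not follow theirs. It measured 160, 148.5 and 132 CPM in vaseline, 126, 338 and 167 in IMQ, and 47.5, 104 and 112 with bergapten. IMQ replicate 1 lay below all vaseline libraries and replicates 2 and 3 above them, so that the groups overlapped. The log2 fold change was 0.52 (SE 0.41, 95% interval -0.44 to 1.47, adjusted p = 0.353). Without IMQ replicate 2 it was -0.0012 (adjusted p = 0.998), so the direction rests on that library.

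Spink5, on the plus strand of chromosome 18 from 44096302 to 44155568 (GRCm39), did not rise with the 8 kallikreins. It measured 409, 373 and 426 CPM in vaseline, 321, 657 and 239 in IMQ, and 273.5, 310.2 and 260 with bergapten. IMQ replicates 1 and 3 lay below every vaseline library and replicate 2 above them all. The log2 fold change was 0.01 (SE 0.32, 95% interval -0.73 to 0.75, adjusted p = 0.983), an interval that leaves out changes of the size seen for the 8 kallikreins. Without IMQ replicate 2, Spink5 was lower in IMQ, at -0.52 (adjusted p = 0.00697).

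**Figure D2:**
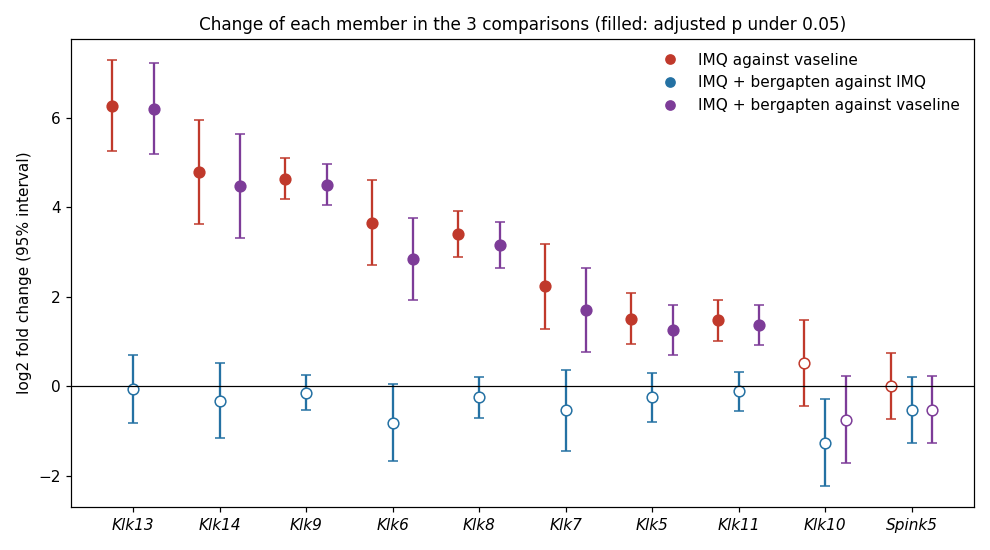
Log2 fold change of each member from edgeR, with 95% intervals, for IMQ against vaseline (red), IMQ with bergapten against IMQ (blue) and IMQ with bergapten against vaseline (purple); filled points passed an adjusted p of 0.05. In red, 8 kallikreins range from 1.48 to 6.27, whereas every blue point is open, between -1.26 and -0.07.

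The make-up of the kallikrein transcripts changed with IMQ. Klk10 held 42.1% ± 2.55 (SD, n = 3) of the summed FPKM of the 9 kallikreins in vaseline and 11.9% ± 1.55 in IMQ. The share of Klk9 was 2.85% ± 0.343 in vaseline against 15.9% ± 6.27 in IMQ, that of Klk13 0.514% ± 0.289 against 9.45% ± 4.36, and that of Klk6 9.09% ± 0.376 against 22.7% ± 3.45. Klk7 held 24.5% ± 1.64 against 22.2% ± 6.30, with overlapping ranges. The share of Klk8 went from 3.11% to 6.90% and that of Klk14 from 0.0814% to 0.439%, while those of Klk5 and Klk11 were lower in IMQ. The ranges of the 2 groups were separate for all kallikreins but Klk7. These shares rest on the lengths behind the FPKM, which for Klk6 are far shorter than the printed one.

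The summed kallikrein FPKM was 3.13, 3.17 and 2.76 times the Spink5 FPKM in the vaseline libraries. In the IMQ libraries it was 12.8, 13.1 and 21.2 times as high, and in the bergapten libraries 12.7, 15.4 and 16.9 times. All 6 IMQ-treated libraries lay above the vaseline libraries, and IMQ replicate 2 did not stand apart on this scale. With the gene lengths printed in the table instead, the ratio ran from 2.34 to 2.73 in vaseline, between 9.35 and 15.6 in IMQ, and between 9.53 and 12.3 in the bergapten libraries. By mean FPKM, 1 kallikrein, Klk10, exceeded Spink5 in vaseline, 5 did in IMQ and 7 with bergapten, and on the printed lengths 1, 4 and 3 did. These are ratios of transcripts, not of protein or activity, and the sum is not limited to the kallikreins that LEKTI inhibits.

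**Figure D3:**
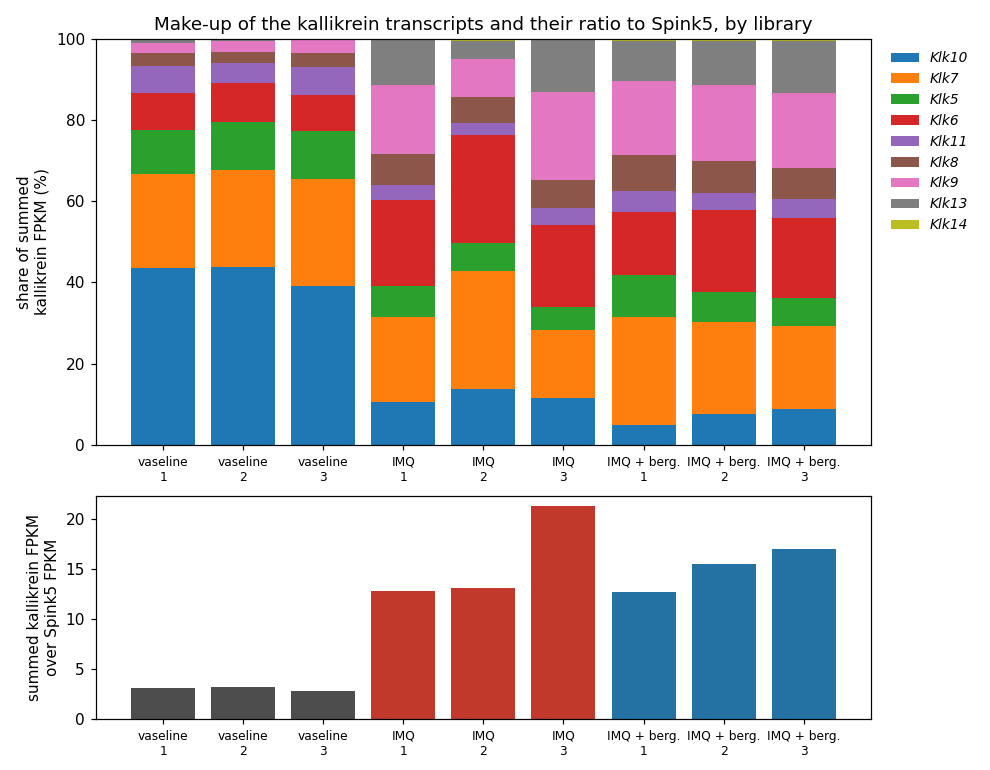
Upper panel, share of each kallikrein in the summed kallikrein FPKM of a library, in percent; lower panel, that sum divided by the Spink5 FPKM, on an axis from 0, for the 9 libraries. The blue band of Klk10 shrinks from 39.2% to 43.7% in vaseline to 10.7% to 13.7% in IMQ, and the ratio is 3.17 or less in vaseline and 12.7 or more in the other 6 libraries.

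Among IMQ-treated libraries the order of levels was less settled than in vaseline. Mean FPKM in IMQ was 288 ± 183 (SD, n = 3) for Klk7, 287 ± 147.5 for Klk6, 181 ± 48.4 for Klk9, 151 ± 74.0 for Klk10 and 105 ± 31.9 for Klk13. Spink5 at 83.7 ± 41.9, Klk8 at 83.1 ± 22.7 and Klk5 at 82.6 ± 30.3 were almost level, above Klk11 at 43.4 ± 10.3 and Klk14 at 5.68 ± 3.43. Neighbours from Klk7 down to Klk5 had overlapping ranges, and only Klk11 and Klk14 were separate from the gene above them. Replicate 2 was the highest IMQ library for 8 members, at 1.45 times the mean of the other two for Klk11 and 2.94 times for Klk7. For Klk9 and Klk13 that ratio was 0.887 and 0.705. The summed granular layer markers were likewise highest in IMQ replicate 2 (26680 CPM against 18250 and 13090), and the basal layer markers lowest there (8588 against 11300 and 10980), and their part in the members' spread was not tested.

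Over all 9 libraries, profiles were compared by the root mean square difference of log2 CPM, each gene centred on its own mean. This is a description, since members of a library share its depth and its tissue. The closest pairs were Klk5 with Klk11 (0.258), Klk5 with Klk7 (0.314), Klk6 with Klk8 (0.331) and Klk7 with Klk11 (0.400). Klk10 and Spink5, the members that did not pass the test, were 0.516 apart, and their nearest member was each other. Among 14067 genes, those most like Klk7, the kallikrein with the highest mean FPKM, were Dnase1l2 (0.173), Scnn1g (0.181), Nipal1 (0.230), Slc26a9 (0.236) and Cpm (0.247). Those most like Spink5 were Arrdc3 (0.104), Slc15a1 (0.107), Arhgef37 (0.107), Tmem62 (0.114) and Clic3 (0.118).

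Along the locus, the changes did not run evenly. From one end, the log2 fold changes were 4.79 for Klk14 and 6.27 for Klk13, 1.48 for Klk11 and 0.52 for Klk10, then 4.64 for Klk9, 3.40 for Klk8, 2.24 for Klk7, 3.66 for Klk6 and 1.52 for Klk5. Between Klk13 and Klk11 lies Klk12, which was not in the list. It had 37, 44 and 25 counts in vaseline and 206, 215 and 327 in IMQ, and rose by 2.61 (SE 0.28, adjusted p = 6.8e-05). Of the other 3 genes in the span, Gm44814 inside Klk13 rose by 5.86 (adjusted p = 0.00028), 2310002F09Rik did not pass (-0.04, adjusted p = 0.934) and Gm44817 had too few counts to test. With at most 83 counts in a library, Gm44814 passed the filter on low counts only through the IMQ-treated groups and so had to differ.

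**Figure D4:**
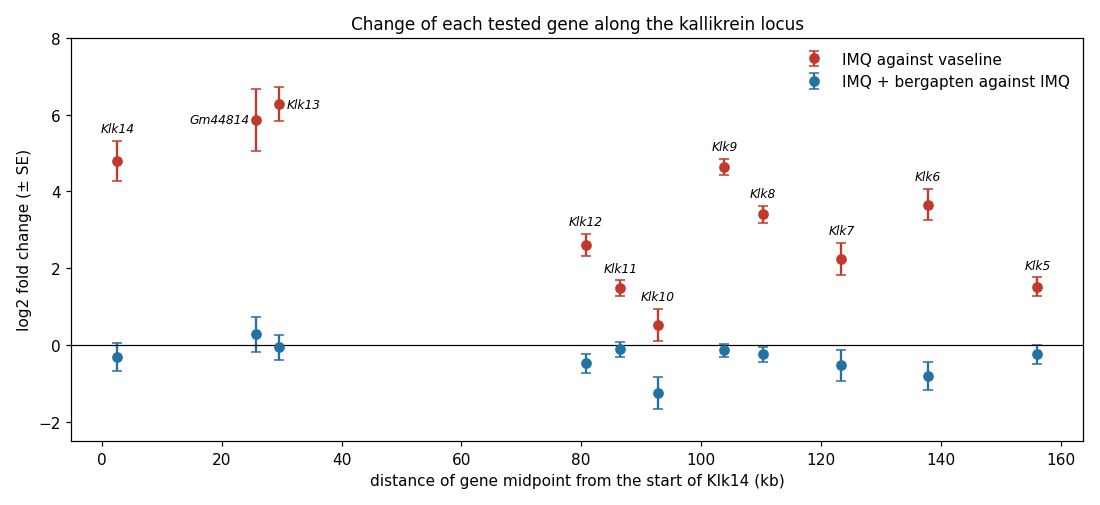
Log2 fold change with SE (vertical axis) against the distance of each gene's midpoint from the start of Klk14 in kb, for tested genes of the kallikrein locus, in red for IMQ against vaseline and in blue for IMQ with bergapten against IMQ; the long minus-strand gene 2310002F09Rik is left out. Klk10, at 0.52, is the lowest red point, between Klk11 at 1.48 and Klk9 at 4.64.

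Other genes of the pathway were counted from lists of known roles. Of 18 further kallikrein genes, 16 had too few counts to be tested, among them the Klk1b family, whose near-identical copies could also split reads. Klk1, tissue kallikrein, was found at 71, 44 and 59 counts in vaseline and at 0, 0 and 4 in IMQ. It passed the filter on low counts only through vaseline and so had to differ. Of 11 other Spink genes, 2 were tested and 0 passed by edgeR: Spink6, another inhibitor of kallikreins in human skin, had 23, 16 and 19 counts in vaseline against 0, 16 and 0 in IMQ (adjusted p = 0.13). Without IMQ replicate 2, which held those 16 counts, 4 were tested and 2 were called lower. The genes called lower there could pass the filter on low counts only through vaseline and so had to differ.

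Of 13 tested desmosomal genes, the substrates and partners of the desquamation proteases, 8 rose and 0 fell, with a median log2 fold change of 0.77. Over all genes tested, 23% rose and 20.2% fell. Dsc1, the desmosomal cadherin desmocollin 1, measured 153, 130 and 154 CPM in vaseline and 813, 802 and 737 in IMQ, where replicate 2 did not stand apart. It rose by 2.43 (SE 0.10, adjusted p = 2.6e-07). Pkp1, Jup and Evpl, which link these cadherins to keratin filaments, rose by 1.45, 1.25 and 0.97. Cdsn, which encodes corneodesmosin, and Dsg1a did not pass and are named for their role. They stood at 0.56 (adjusted p = 0.169) and 0.09 (adjusted p = 0.699), both with overlapping groups. Of 18 other epidermal proteases, 10 rose and 0 fell, with a median of 0.91. Among the 10, Tmprss11d (6.94) and Tmprss11a (3.77) are named for their low counts. They passed the filter on low counts only through the IMQ-treated groups and so had to differ. Prss27, a membrane serine protease, rose by 4.32 (SE 0.24), Casp14, a caspase that takes part in breaking down filaggrin, by 4.29 (SE 0.27), Tmprss4 by 1.80 and Furin by 0.97.

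Of 17 other protease inhibitors, 6 rose and 3 fell, with a median of 0.51, and 5 rose and 6 fell without IMQ replicate 2. The counts ran from 4 to 7 higher and from 3 to 6 lower over the alternatives. The shares over all genes tested were 23% higher and 20.2% lower. Slpi, an inhibitor of leukocyte proteases and of KLK7, had 24, 21 and 20 counts in vaseline and 644, 903 and 827 in IMQ, and rose by 4.99 (SE 0.31, adjusted p = 3.26e-06). Wfdc5 rose by 1.62 and Serpinb5 by 0.84, while Serping1, the inhibitor of complement C1, fell by 1.11. Cst6, the cathepsin inhibitor cystatin M/E, is named because of its values: it stood at 1153, 1093 and 991 CPM in vaseline, 206, 3992 and 102 in IMQ, and 123, 165 and 126 with bergapten. IMQ replicate 2 thus lay above all vaseline libraries and the other 5 IMQ-treated libraries far below them, the same direction as for Spink5.

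Of 10 genes listed as kallikrein targets, not all of them direct substrates, 4 rose and 1 fell, with a median of 0.11. Over all genes tested, 23% rose and 20.2% fell. Camp, 1 of those that rose, had overlapping groups (adjusted p = 0.0465) and 19 counts over the vaseline libraries. It passed the filter on low counts only through the IMQ-treated groups. Flg, the filament-binding protein of the horny layer, rose by 4.49 (SE 0.58, adjusted p = 0.000548), or by 3.77 without IMQ replicate 2, and the cytokine gene Il1a by 2.00 (SE 0.31). Il1b rose by 2.15 (adjusted p = 0.0319), a call lost in 6 of 11 alternatives with an adjusted p up to 0.115, and Egfr fell by 0.38. F2rl1, which encodes PAR2 and was picked for its values, stood at 21.5, 21.1 and 22.6 CPM in vaseline, 7.89, 29.2 and 10.1 in IMQ, and 10.6, 10.5 and 10.6 with bergapten, again with IMQ replicate 2 alone above vaseline. Of 18 granular layer markers, which share Flg with the targets, 12 rose and 2 fell, with a median of 1.32, and 12 rose and 4 fell without IMQ replicate 2. Of 10 basal layer markers, 5 rose and 3 fell, with a median of 0.36.

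**Figure D5:**
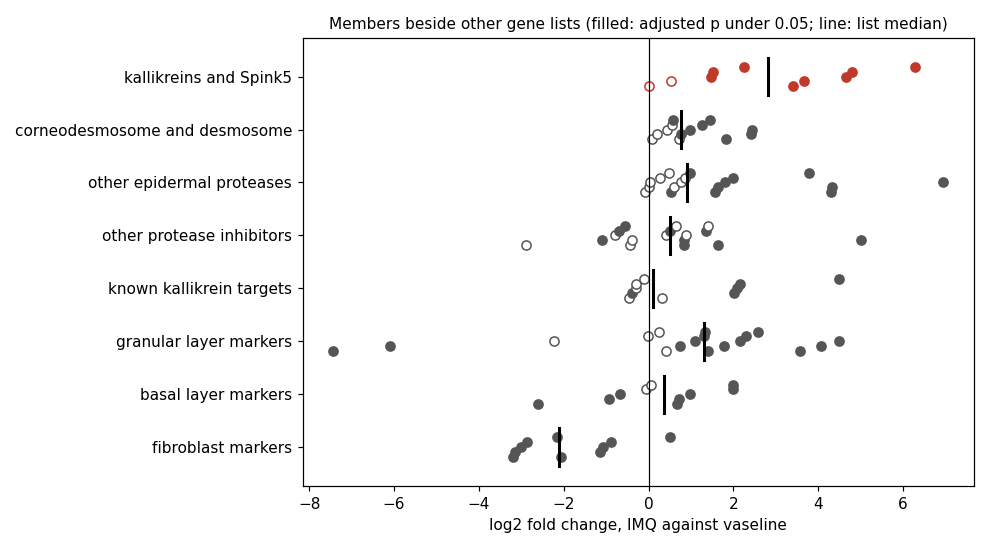
Log2 fold change of IMQ against vaseline for each tested gene of the members (red) and of 7 other lists (grey), 1 point per gene with a small vertical offset; filled points passed an adjusted p of 0.05 and black lines are list medians. The members' median of 2.82 lies right of those of the other lists shown, from 1.32 for granular layer markers to -2.12 for fibroblast markers. Neutrophil markers, with a median of 4.35, and hair follicle markers, with 3.65, lay higher and are not drawn. The summed hair follicle markers exceeded vaseline only in IMQ replicate 3, at 1161 CPM against 56.2 and 63.5 in replicates 1 and 2.

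With bergapten on IMQ skin, none of the 10 members passed the test against IMQ alone. All 10 estimates were below 0, from -0.07 for Klk13 to -1.26 for Klk10, with adjusted p from 0.134 to 0.932. By edgeR 0 members passed, 1 had an unadjusted p under 0.05, and DESeq2 called 1, Klk10. Of all genes tested, 4.83% passed in either direction and 2.65% as lower. The sign of most estimates rests on IMQ replicate 2: without it, Klk5 (0.14), Klk7 (0.19), Klk8 (0.047), Klk11 (0.092), Klk14 (0.36) and Spink5 (0.0064) were above 0, and Klk6 went from -0.81 to -0.25. The median log2 fold change was -0.28 for the members and -0.005 over all genes. The comparison uses the IMQ libraries of the comparison above, so their values enter both.

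Klk10 was the member with the lowest estimate. Its bergapten libraries, at 47.5, 104 and 112 CPM, all lay below the IMQ libraries, at 126, 338 and 167, as held for 13.2% of all genes. The log2 fold change was -1.26 (SE 0.42, 95% interval -2.23 to -0.29) with an unadjusted p of 0.0175 and an adjusted p of 0.134 by edgeR. Over the 11 alternatives the estimate stayed between -1.53 and -0.74, and the adjusted p between 0.00894, by DESeq2, and 0.319. Klk6 was next at -0.81 (95% interval -1.66 to 0.04, adjusted p = 0.246), and its groups overlapped.

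The width of the intervals differed between members. For Klk9 the log2 fold change was -0.14 (95% interval -0.53 to 0.25), for Klk8 -0.24 (-0.70 to 0.21) and for Klk11 -0.11 (-0.55 to 0.33). The intervals were wider for Klk13, from -0.83 to 0.69, Klk14, from -1.15 to 0.51, Klk7, from -1.44 to 0.37, and Spink5, from -1.27 to 0.21. These intervals do not show that bergapten left the genes as they were.

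In the wider pathway, few genes passed in this comparison. Of 13 desmosomal genes 1 fell, Dsg3 by 0.72 (adjusted p = 0.0241), and of 17 other inhibitors 2 fell, Timp3 by 0.73 and Serpinb6a by 0.48 (both adjusted p = 0.0313). Of 10 targets 1 fell, Egfr by 0.39 (adjusted p = 0.0332), and of 18 granular layer markers 1 fell, Tgm1 by 0.58 (adjusted p = 0.0225). Of 10 basal layer markers 2 fell, Cdh3 by 0.66 and Trp63 by 0.39. By edgeR 0 of 18 other proteases passed, where 4 of the smallest unadjusted p, from 0.00499 to 0.0287, belonged to Prss27 (-0.73), Tmprss4 (0.22), Ctsl (-1.03) and Prss22 (-0.75). The calls for Dsg3, Timp3, Serpinb6a and Egfr were lost in 3, 5, 5 and 6 of 11 alternatives. Over these the granular layer count ran from 0, with only the 6 libraries compared and without bergapten replicate 1 or 3, to 2, and the basal layer count from 1 to 3. Summed granular layer markers were 18390 to 23800 CPM with bergapten and fibroblast markers 26150 to 33730, the latter above all IMQ libraries, and their part in the members' values was not tested.

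Against vaseline, skin given IMQ with bergapten still had 8 kallikreins raised and none lowered. Of all genes, 40.4% passed, 20.9% as higher, and 30% had non-overlapping higher groups, as did all 8. The vaseline libraries are those of the first comparison, and the fold changes stand side by side as follows. Klk13 was raised by 6.20 (6.27 with IMQ alone), Klk9 by 4.51 (4.64), Klk14 by 4.47 (4.79), Klk8 by 3.16 (3.40) and Klk6 by 2.85 (3.66). Klk7 was raised by 1.70 (2.24), Klk11 by 1.37 (1.48) and Klk5 by 1.27 (1.52). Adjusted p ranged from 1.03e-06 for Klk9 to 0.011 for Klk7, and each of the 8 calls held in all 11 alternatives. Among them, Klk14 passed the filter on low counts only through the IMQ-treated groups and so had to differ. Without vaseline replicate 1 the value for Klk13 was 6.80.

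Klk10 and Spink5 did not pass, but both lay below vaseline in every bergapten library, as did 29.2% of all genes. Klk10 was at -0.74 (SE 0.42, adjusted p = 0.197). Spink5 was at -0.52 (SE 0.32, 95% interval -1.26 to 0.22, adjusted p = 0.239). When only the 6 libraries of these groups were fitted, without the widely spread IMQ libraries, the estimate for Spink5 was -0.52 with an adjusted p of 0.000322. The share of Klk10 in kallikrein FPKM was 7.07% ± 2.11 (SD, n = 3), below that of vaseline in every library. By mean FPKM, Klk7 at 209 ± 18.3, Klk6 at 171 ± 46.6 and Klk9 at 169 ± 25.7 were highest, then Klk13 at 102 ± 24.1, Klk8 at 72.9 ± 5.59, Klk5 at 72.7 ± 8.59, Klk10 at 65.9 ± 25.7, Spink5 at 60.8 ± 4.83, Klk11 at 41.7 ± 2.06 and Klk14 at 4.77 ± 0.543. Klk9 and Klk13, Spink5 and Klk11, and Klk11 and Klk14 were the neighbours with separate ranges.

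In the same comparison, 8 of 13 desmosomal genes rose and 0 fell, and 9 of 18 other proteases rose and 0 fell. Casp14 rose by 4.54 (SE 0.27). Tmprss11d, an airway-type membrane protease, had 1 count over the 3 vaseline libraries and 232 over those with bergapten, and is among the 9 only because the IMQ-treated groups carried it past the filter on low counts. Tmprss11a likewise passed that filter only through the IMQ-treated groups. Among other inhibitors, 5 of 17 were higher, Slpi among them at 4.36, and 5 lower, Serping1 among them at -1.14. For comparison, of all 18005 genes tested, 3763 were higher and 3507 lower. Of the targets 2 of 10 rose, Flg by 4.41 and Il1a by 1.11 (adjusted p = 0.0163, lost in 5 of 11 alternatives), and 1 fell, Egfr by 0.77. Spink6, with 23, 16 and 19 counts in vaseline and 0, 2 and 1 with bergapten, passed the filter only through vaseline.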

How the data were processed

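RNA from 9 skin libraries was sequenced. The submitters' processing notes name Trimmomatic, HISAT2, HTSeq (version 0.6.0) and the build GRCm39; annotation and strand setting are not given in the sources used here. The authors deposited raw read counts per gene and, beside them, FPKM values, which equal counts scaled by the total count and by 1 length per gene. The 2 rows that name no gene and a quality sheet were not used here. Library sizes were 15855439 to 19862905 counts, so depth limits the scarcest genes, such as Klk14 in vaseline. No replicate pair had identical values.

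Counts were filtered with filterByExpr (minimum count 10, minimum total 15), which left 18005 genes, and scaled by TMM. A group-means model over all 9 libraries was fitted with edgeR 4.0.16 in R 4.3.3 (robust quasi-likelihood F test, two-sided, Benjamini-Hochberg over all genes, threshold 0.05; limma 3.58.1 loaded). Biological coefficient of variation was 0.187. The procedure was checked on simulated counts. FPKM were only described. Values with ± are means and SD.

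Alternatives were RLE size factors, DESeq2 1.42.0, no filter on low counts, only the 6 libraries compared, a replicate block, and each library left out, which makes 11 per comparison; median FPKM, the printed gene lengths and a prior count of 0.5 in place of 2 were also tried. Genes were named by rule: all members, up to 4 genes of each list with the smallest unadjusted p, the 5 genes most like Klk7 and Spink5 whose mean was 1 CPM or more, and called genes inside the kallikrein locus; exceptions are stated, and not every gene the rule takes is printed. Members and lists were chosen with earlier results of these data known. Marker lists of other cells were summed in CPM, and lists were neither tested nor given a p. Promoters came from RefSeq (GRCm38.p6) and were matched by symbol for all 9 kallikreins. Transcripts for the runs of 75 bases came from GENCODE M21.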

Additional observations from a re-analysis of the deposited data

How the results depend on the processing

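The 8 kallikrein calls of IMQ against vaseline and of IMQ with bergapten against vaseline held under all 11 alternatives of each. Klk14 is among them, although it passed the filter on low counts only through the IMQ-treated groups. For IMQ against vaseline, the lowest log2 fold change among the 11 alternatives was 1.13 for Klk5 and 1.28 for Klk11. It was 3.10 for Klk6 and 3.11 for Klk8. In IMQ against vaseline, the log2 fold change of Spink5 changed sign with the replicate block (-0.10), with only 6 libraries (-0.018), without vaseline replicate 1 (-0.0093) or 2 (-0.075) and without IMQ replicate 2, and ran from -0.52 to 0.25 over the libraries left out. That of Klk10 ran from -0.0012, without IMQ replicate 2, to 0.75. In bergapten against IMQ, signs turned without IMQ replicate 2 for Klk5 (range -0.44 to 0.14), Klk7 (-0.80 to 0.19), Klk8 (-0.40 to 0.047), Klk11 (-0.30 to 0.092), Klk14 (-0.59 to 0.36) and Spink5 (-0.80 to 0.0064). They turned without IMQ replicate 3 for Klk9 (-0.28 to 0.069) and Klk13 (-0.22 to 0.17), and for Klk13 also without bergapten replicate 1 (0.12); the cause was not tested. The count of all genes called there was 869, but 489 with the replicate block, 130 with only the 6 libraries, 1866 by DESeq2 and 139 to 1711 with a library left out, fewest without bergapten replicate 1, 332 without its replicate 2, 176 without its replicate 3 and most without IMQ replicate 3. DESeq2 called 1 member, Klk10. On the printed gene lengths, a choice made after seeing the data, 3 kallikreins exceeded Spink5 with bergapten, against 7; the printed length is longer than that behind the FPKM for 5 members. In IMQ, 4 to 7 did with a library left out.

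Deviations of libraries with the same number correlated at -0.091 to 0.176. With 3 libraries per group, this cannot show whether they shared more than a number. The replicate block changed no member call. All 5 genes most like Klk7 and all 5 most like Spink5 were the same with a prior count of 0.5. The lowest counts, of Klk14 in vaseline, limit the precision of its fold.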

Other observations

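Lists of other cell types were counted in IMQ against vaseline. Of 10 neutrophil markers 8 rose and 1 fell, with a median log2 fold change of 4.35. Their summed level was 75.2 to 102.5 CPM in vaseline, 3892 to 9682 in IMQ, where replicate 2 was lowest, and 2829 to 6815 with bergapten. Most of the IMQ sum came from S100a8 and S100a9, at means of 2377 and 4619 CPM, while Ly6g averaged 1.08 CPM. Ly6g had 0 counts in vaseline, so it passed the filter on low counts only through the IMQ-treated groups and had to differ. Mpo was the marker that fell, from a mean of 31.1 to 1.06 CPM. The sum is thus not a measure of neutrophil number. Of 12 sebaceous gland markers 0 rose and 9 fell, with a median of -2.42 and sums of 5674 to 7483 CPM in vaseline against 1199 to 3749 in IMQ. Of 10 skeletal muscle markers 9 fell. Of the salivary gland list, Amy1, Egf and Mucl1 were tested and fell, with list sums of 57.8 to 66.3 CPM in vaseline against 13.7 to 23.0 in IMQ, and the other 4 of 7 were at 0 in vaseline. Mucl1 passed the filter on low counts only through vaseline and so had to differ. Of 6 tested sweat gland markers 2 rose and 1 fell, and 2 rose and 3 fell without IMQ replicate 2. Summed hair follicle markers were 56.2, 63.5 and 1161 CPM in IMQ replicates 1, 2 and 3, against 65.1 to 72.0 in vaseline. Only IMQ replicate 3 thus lay above vaseline. Of 11 tested, 2 were called higher, against 6 without IMQ replicate 1 or 2. The count was 0 by DESeq2 or without any 1 vaseline library. The 2 called by edgeR, Krt71 and Krt73, reached at most 0.39 and 0.11 CPM in vaseline. They passed the filter on low counts only through the IMQ-treated groups, so a call could only be higher.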
